A study of Mus musculus with 6 samples.

Results

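The genes described here make, break down or control the polyamines putrescine, spermidine and spermine in mouse bone marrow stem cells. They were chosen by name: every probe set annotated with Srm, Odc1, Sms, Amd1, Sat1, Oaz1, Oaz2, Azin1 or Smox as its single gene symbol was taken. That gave 14 probe sets for 7 of the 9 genes, out of 35877 probe sets tested. Odc1, Oaz2 and Azin1 had 3 probe sets each, Smox had 2, and Srm, Sat1 and Oaz1 had 1 each. The 3 probe sets for Sms all carried its pseudogene Sms-ps as a second symbol, and Amd1 had no annotated probe set, so neither gene is given a value. A further Oaz1 probe set was shared with the pseudogene Oaz1-ps and was not used. The set was proposed with results of these data in view, and imatinib against BCR/ABL was taken to be the comparison used, which is an assumption. Values of these genes in that comparison are therefore given as a description, with no p-value for a single gene, and nothing is read from counts of calls.

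Polyamines are small positively charged molecules that bind RNA and DNA and are needed for growth and translation. Ornithine decarboxylase, encoded by Odc1, makes putrescine from ornithine, and spermidine synthase, encoded by Srm, adds an aminopropyl group to give spermidine. Antizymes, encoded by Oaz1 and Oaz2, are made when polyamines are plentiful and send ornithine decarboxylase to the proteasome, while the antizyme inhibitor encoded by Azin1 binds antizyme and spares the enzyme. Sat1 encodes the acetyltransferase that marks spermidine and spermine for breakdown or export, and Smox encodes the oxidase that turns spermine back into spermidine.

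RNA came from GFP-positive marrow cells of mice, sorted as lacking lineage markers and carrying c-Kit and Sca-1, and was read on 6 Affymetrix arrays. The 3 groups, with 2 arrays each, were BCR/ABL-expressing cells from mice treated with imatinib, BCR/ABL-expressing cells from untreated mice, and cells carrying the empty GFP vector. The BCR/ABL fusion protein drives chronic myeloid leukaemia through its tyrosine kinase activity, which imatinib blocks. All 3 groups had been through gene transfer and the same sort, and the series asked which genes in stem cells respond to BCR/ABL. The strain, age, imatinib dose and time, the promoter of the vector and any pooling of mice are not stated in the labels. Whether the 2 arrays of a group stand for separate mice is not stated either, so a p-value here rests on a spread that may be technical. Intensities below are the deposited linear values, given per array in replicate order. Log2 levels and log2 changes are on the quantile normalized log2(value + 16) scale, and limma is the tool of every test.

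The arrays of a group correlated at 0.985 for imatinib, 0.991 for BCR/ABL and 0.971 for vector. Vector replicate 2 was less like vector replicate 1 than like every BCR/ABL and imatinib array, with which it correlated at 0.972 to 0.981. Kit, which encodes the c-Kit receptor of the sort, read 2659 and 2602 with imatinib, 1332 and 1116 in BCR/ABL and 1637 and 2125 in vector. Other cell markers differed between the groups, and granulocyte markers also between the 2 vector arrays. The sum of 9 granulocyte markers was 74120 in vector replicate 1 and 49410 in vector replicate 2. It was 75930 to 81880 with imatinib and 71580 to 81460 in BCR/ABL. The summed intensity of 9 mast cell and basophil markers was 49000 to 58710 with imatinib, 35550 to 35790 in BCR/ABL and 6602 to 11690 in vector, and 8 of the 9 were higher with imatinib than without. The sum of 8 B cell markers was 683 to 1758, 1279 to 2409 and 4719 to 22520 in the same order. By log2 change all 8 were lower with imatinib than in BCR/ABL. For Cd79b (-0.05) and Pax5 (-0.008) the groups overlapped. Their mean intensities were higher with imatinib, at 908 beside 861 and 0.87 beside 0.73. Of the 8, 3 had a mean intensity below 16 with imatinib. The sum of 8 cycling cell markers was 28140 to 32330, 34820 to 35410 and 36870 to 40770, and 7 of the 8 were lower with imatinib than without. By log2 change all 6 measured stem cell markers were higher with imatinib than in BCR/ABL. So were 5 of 9 granulocyte, 4 of 6 monocyte and 2 of 5 erythroid markers. Of these higher markers, 5, 2, 2 and 1 in that order had groups that did not overlap, beside 51.5% of all genes in either direction. The erythroid marker Hba-a1 was near the floor, at mean intensities of 0.46 with imatinib and 0.55 in BCR/ABL. Ly6a, which encodes Sca-1, had no probe set of its own. For beta-actin, the signal at the 3-prime end over that at the 5-prime end was 1.55 to 1.74 with imatinib, 1.30 to 1.48 in BCR/ABL and 1.62 to 1.81 in vector. The part that these differences play in the results below was not tested.

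Odc1 and Sat1 encode the enzymes that open synthesis and breakdown, and their mean levels with imatinib lay on opposite sides of those in untreated BCR/ABL cells. The 250 bases before each transcription start are therefore shown, from RefSeq with build GRCm38.p6. For the brightest Odc1 probe set the imatinib and BCR/ABL groups overlapped. No promoter was available for Srm or Azin1, so the motif search does not cover them. The Odc1 stretch is chr12:17544623-17544872 on the plus strand and the Sat1 stretch is chrX:155216450-155216699 on the minus strand. Capitals mark the GC box GGGCGG or its reverse complement CCGCCC, the motif bound by Sp1 factors.
Odc1: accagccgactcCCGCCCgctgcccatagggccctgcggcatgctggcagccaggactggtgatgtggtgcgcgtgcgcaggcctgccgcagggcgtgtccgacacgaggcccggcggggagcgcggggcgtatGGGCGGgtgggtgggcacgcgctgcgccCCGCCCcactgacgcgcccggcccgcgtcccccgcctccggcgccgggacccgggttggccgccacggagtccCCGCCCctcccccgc
Sat1: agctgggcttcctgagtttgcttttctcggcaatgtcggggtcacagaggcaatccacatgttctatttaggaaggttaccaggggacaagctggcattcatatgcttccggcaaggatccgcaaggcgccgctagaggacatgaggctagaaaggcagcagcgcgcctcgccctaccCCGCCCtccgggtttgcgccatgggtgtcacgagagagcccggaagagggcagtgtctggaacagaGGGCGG
The GC box occurred 4 times before Odc1 and 2 times before Sat1, and in 4 of the 5 measured genes with a promoter in the table, which were Odc1, Sat1, Oaz1, Oaz2 and Smox, Oaz1 being the exception. Across all 32851 stretches of this length, 32.7% held it. Both strands were also searched for the E-box CACGTG that Myc binds (6.02% of all stretches), the cAMP response element TGACGTCA (1.55%), the TATA box letters TATAAA (12.4%), the FoxO motif GTAAACA (3.17%) and TATGACTAA (0.0944%), the polyamine response element known from human SAT1. None of these was found in the 5 stretches, which says only that these letters are not in these windows. No motif overlapped another.

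The biosynthetic gene Srm stood lowest with imatinib and highest in untreated BCR/ABL cells. Its intensity was 2103 and 2100.2 with imatinib, 4777 and 5369 in BCR/ABL and 3638 and 3885 in vector. The 3 groups did not overlap, and the imatinib arrays lay below those of vector as well as those of BCR/ABL. The log2 level was 11.06 ± 0.02 (SD, n = 2) with imatinib, 12.30 ± 0.10 in BCR/ABL and 11.87 ± 0.04 in vector. With imatinib against untreated BCR/ABL the log2 change was -1.24 (SE 0.09), or 0.423 times the untreated level. In BCR/ABL against vector it was 0.42 (SE 0.09) and did not pass (limma, adjusted p = 0.228, both arrays higher than both vector arrays). It was -0.82 with imatinib against vector (SE 0.09, adjusted p = 0.0805), which did not pass either. In bulk samples fewer cells of a type and less RNA per cell cannot be told apart, and this holds for each gene below.

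**Figure D1:**
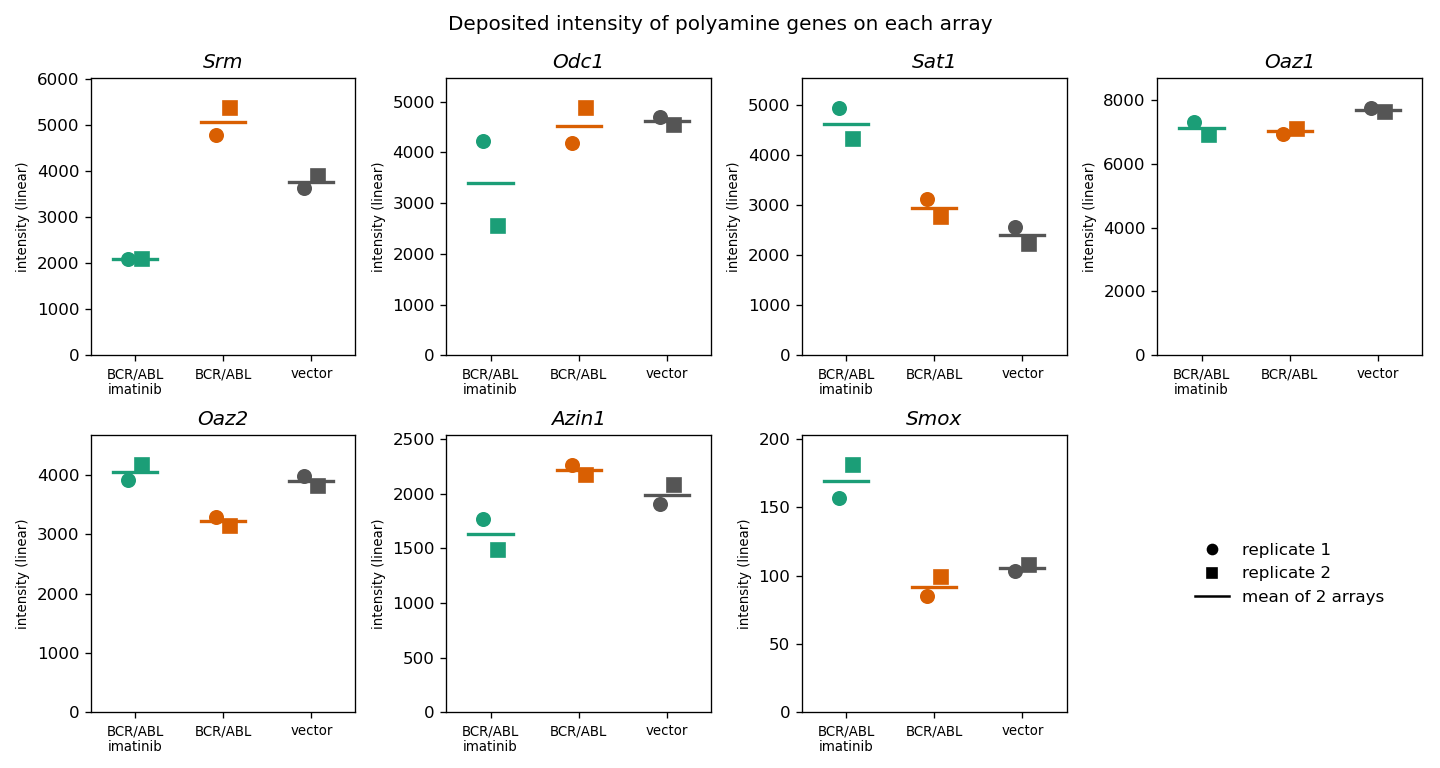
Deposited linear intensity of the probe set with the highest mean for each of the 7 genes, with BCR/ABL imatinib, BCR/ABL and vector from left to right. Circles are replicate 1, squares are replicate 2 and bars are the mean of 2 arrays. Srm reads 2103 and 2100.2 with imatinib, below every other array, while Sat1 reads 4929 and 4310.3, above every other array.

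Odc1, the gene of the first enzyme, was lower on 1 imatinib array than on the other. The brightest probe set, 1437711_x_at, read 4232 and 2552 with imatinib, 4180.2 and 4873 in BCR/ABL and 4687 and 4533 in vector. Imatinib replicate 1 thus lay within the range of the BCR/ABL arrays and only replicate 2 lay below it. The log2 change with imatinib against BCR/ABL was -0.41 (SE 0.23). It was -0.05 without imatinib replicate 2 and -0.77 without imatinib replicate 1. Probe set 1438761_a_at read 3419.8 and 2136 with imatinib, 3798 and 4134 in BCR/ABL and 3819.9 and 3479 in vector, a change of -0.52 (SE 0.22) with imatinib against BCR/ABL. The dimmest probe set, 1427364_a_at, read 389 and 192 with imatinib, 604 and 778 in BCR/ABL and 792 and 539.9 in vector. Here both imatinib arrays lay below all others, and the change was -1.38 (SE 0.40). The 3 probe sets had the same sign but differed in size. The ending of 1437711_x_at marks probes shared with other sequences in Affymetrix naming, so signal of related sequences may enter its value.

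Odc1 levels in BCR/ABL and vector cells overlapped. The log2 changes of its 3 probe sets were -0.03 (SE 0.23, adjusted p = 0.980), 0.11 (SE 0.22, adjusted p = 0.885) and 0.05 (SE 0.40, adjusted p = 0.980) by limma. With array medians in place of quantiles the sign of the brightest one turned, at 0.18, while all probe sets together shifted by 0.20. With imatinib against vector the changes were -0.44, -0.41 and -1.33 (adjusted p = 0.468, 0.475 and 0.267 by limma). The first of these was -0.08 without imatinib replicate 2.

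Azin1 counters the antizymes and is itself a relative of ornithine decarboxylase without its activity. Like Srm, it was lower with imatinib than in BCR/ABL. Probe set 1450714_at read 1773 and 1483 with imatinib, 2262 and 2169.7 in BCR/ABL and 1904 and 2082 in vector. The imatinib arrays were the lowest and the BCR/ABL arrays the highest, with no overlap among the 3 groups. The log2 change was -0.43 (SE 0.12) with imatinib against BCR/ABL, 0.13 (SE 0.12, limma adjusted p = 0.719) in BCR/ABL against vector and -0.30 (SE 0.12, adjusted p = 0.365) with imatinib against vector. The other probe sets, 1422702_at and 1430984_at, had changes of -0.32 and -0.61 with imatinib against BCR/ABL, and again the groups did not overlap. In BCR/ABL against vector these 2 probe sets had changes of 0.14 (limma adjusted p = 0.798) and 0.40 (adjusted p = 0.730), both with all BCR/ABL arrays above the vector arrays. Their changes with imatinib against vector were -0.18 (limma adjusted p = 0.698) and -0.20 (adjusted p = 0.869), and the groups overlapped. The probe set 1430984_at was dim, at 44.3 to 66.4 over the 6 arrays.

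**Figure D2:**
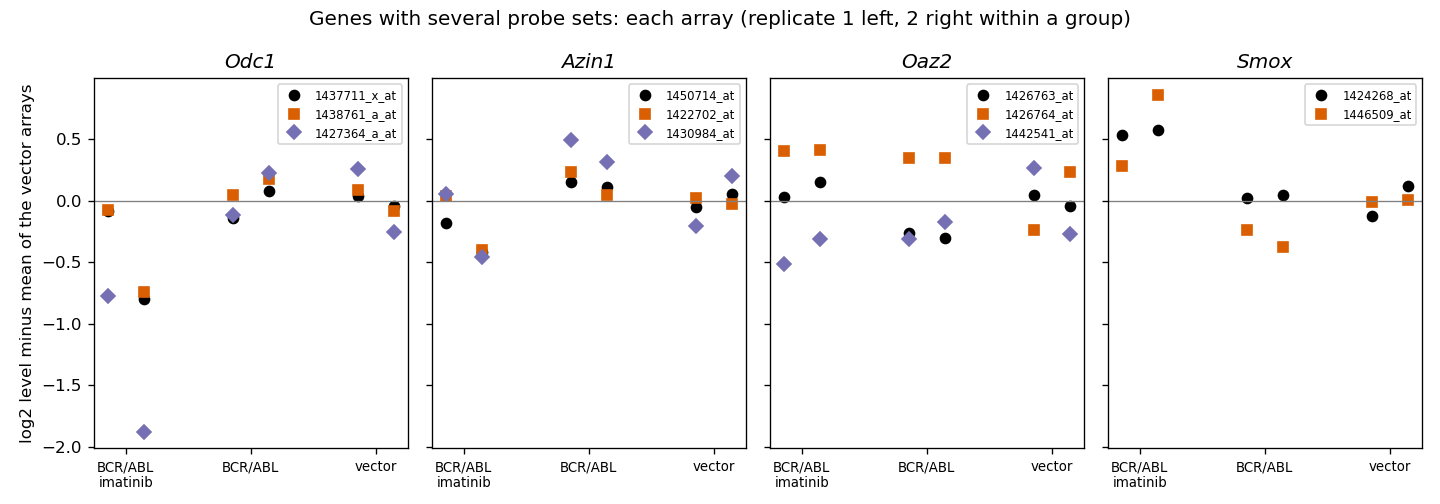
Log2 level of each probe set of Odc1, Azin1, Oaz2 and Smox minus its mean over the vector arrays, with the groups from left to right as BCR/ABL imatinib, BCR/ABL and vector, and replicate 1 left of replicate 2. Each symbol is 1 probe set on 1 array. For Odc1, replicate 2 with imatinib lies below replicate 1 in all 3 probe sets, while the 3 probe sets of Oaz2 go different ways.

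The antizyme genes differed from each other. Oaz1 read 7287 and 6909 with imatinib, 6931 and 7086 in BCR/ABL and 7735 and 7609.98 in vector. Its log2 change was 0.04 (SE 0.06) with imatinib against BCR/ABL, where the groups overlapped and leaving out imatinib replicate 1 gave -0.0017, and -0.08 (SE 0.06, limma adjusted p = 0.672) in BCR/ABL against vector. The change of Oaz1 with imatinib against vector was -0.04 (limma adjusted p = 0.848). The first 2 signs turned with array medians, at -0.31 and 0.08, where all probe sets shifted by -0.27 and 0.20. The brightest Oaz2 probe set, 1426763_at, read 3912 and 4160.1 with imatinib, 3290.2 and 3137 in BCR/ABL and 3969.8 and 3804 in vector. BCR/ABL cells were thus the lowest, and the imatinib and vector arrays overlapped. Its change was 0.37 (SE 0.09) with imatinib against BCR/ABL and -0.28 (SE 0.09, adjusted p = 0.347) in BCR/ABL against vector. It was 0.09 with imatinib against vector (limma adjusted p = 0.708). With array medians the value with imatinib against BCR/ABL was -0.0014, or 0.27 relative to the shift of all probe sets. The other Oaz2 probe sets did not share this pattern. Probe set 1426764_at read 406 and 428 with imatinib, 368 and 371 in BCR/ABL and 266 and 343 in vector, with changes of 0.06 and 0.35 in the same 2 comparisons. Probe set 1442541_at was dim, at 19.4 to 48.4 over the 6 arrays, with changes of -0.17 (SE 0.31) and -0.24 (SE 0.31). Its groups overlapped in both comparisons, and its mean intensity was higher with imatinib, at 26.3 beside 22.9 in BCR/ABL. Antizyme protein depends on a ribosomal frameshift that polyamines promote, so these transcript levels do not measure it.

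Both genes of polyamine breakdown were higher with imatinib. Sat1 read 4929 and 4310.3 with imatinib, 3127 and 2752 in BCR/ABL and 2562 and 2224 in vector. The 3 groups did not overlap, and the order was imatinib, then BCR/ABL, then vector. The log2 level was 12.21 ± 0.13 (SD, n = 2) with imatinib, 11.51 ± 0.12 in BCR/ABL and 11.23 ± 0.15 in vector. The change with imatinib against BCR/ABL was 0.70 (SE 0.12). In BCR/ABL against vector it was 0.27 (SE 0.12, limma adjusted p = 0.476), and with imatinib against vector 0.97 (SE 0.12, adjusted p = 0.110), about 1.96 times the vector level. Neither of these passed.

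Smox was dim. Probe set 1424268_at read 157 and 181 with imatinib, 85.3 and 98.7 in BCR/ABL and 103 and 107 in vector. The imatinib arrays were above all others. Its change was 0.52 (SE 0.33) with imatinib against BCR/ABL, 0.03 (SE 0.33, limma adjusted p = 0.984) in BCR/ABL against vector and 0.56 (SE 0.33, adjusted p = 0.527) with imatinib against vector. The sign in BCR/ABL against vector was negative without further normalization, at -0.17. Probe set 1446509_at read 21.3 and 46.8 with imatinib, 7.38 and 6.06 in BCR/ABL and 12.2 and 13.5 in vector, with all 4 arrays without imatinib below the added constant of 16. Its change was 0.87 (SE 0.26) with imatinib against BCR/ABL, on a scale where that constant understates the change of dim probe sets. In BCR/ABL against vector it was -0.30 (SE 0.26, limma adjusted p = 0.690), with both BCR/ABL arrays below both vector arrays. The normalized change of 1424268_at had the opposite sign, but its deposited intensities were also lower on both BCR/ABL arrays than on both vector arrays. With imatinib against vector the change of 1446509_at was 0.57 (SE 0.26, limma adjusted p = 0.404).

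**Figure D3:**
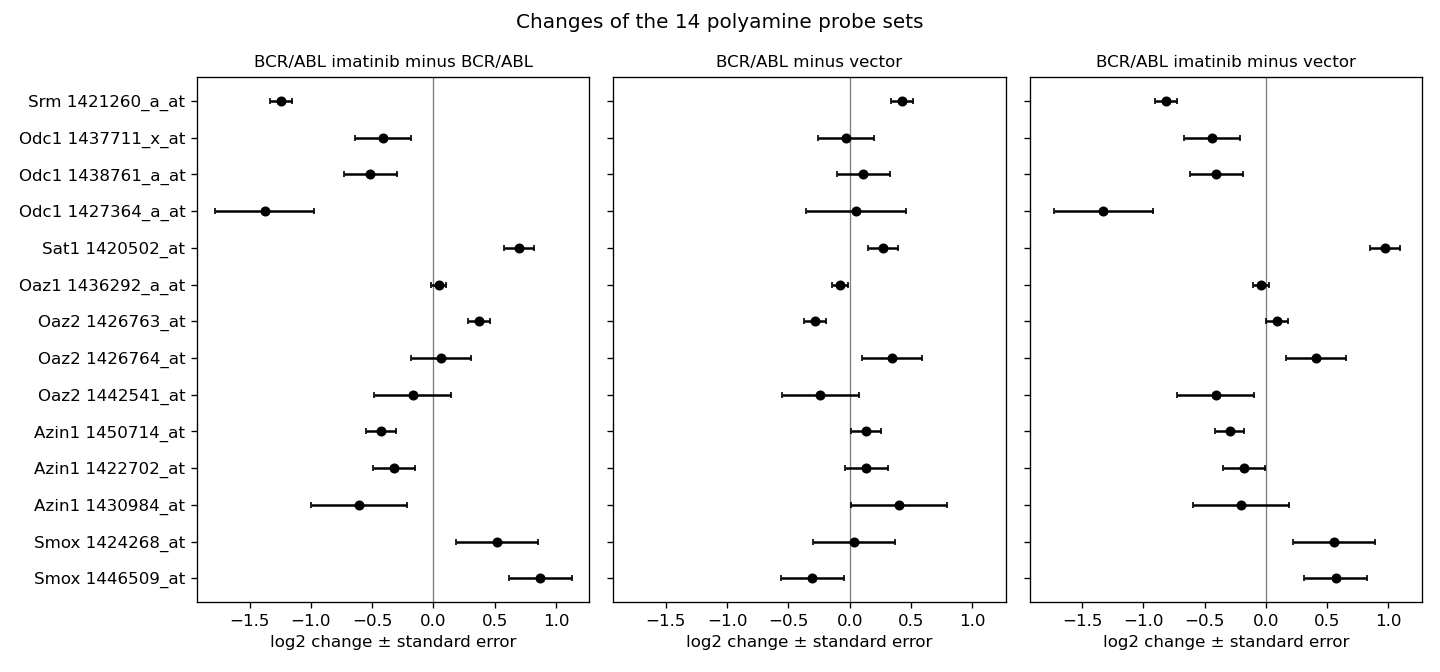
Log2 change of each of the 14 probe sets, with its standard error as the bar, for BCR/ABL imatinib minus BCR/ABL, BCR/ABL minus vector and BCR/ABL imatinib minus vector from left to right. In the first panel Srm, Odc1 and Azin1 lie below 0 and Sat1 and Smox above it, while Oaz1, at 0.04, and Oaz2 lie near 0 or go both ways.

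By count, limma called 0 of the 14 probe sets in BCR/ABL against vector, where 0.0613% of all probe sets were called. At an unadjusted p under 0.05 there were 2 of 14, Srm and the brightest Oaz2 probe set, against 11.5% of all probe sets. With imatinib against vector it called 0 of 14, against 0.0446% of all, and 3 of 14 had an unadjusted p under 0.05, against 13.8%. With imatinib against BCR/ABL it called 0 of 14 and 0% of all, and 6 of 14 had an unadjusted p under 0.05, against 14.6%. Nothing is read from that last count, since this comparison was taken as the one that led to the choice of genes. Whether the other comparisons also played a part in that choice is not known. Each of them shares 2 arrays with imatinib against BCR/ABL and is not independent of it.

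The groups did not overlap for 9 of 14 probe sets in BCR/ABL against vector, against 43.2% of all, for 11 of 14 with imatinib against BCR/ABL, against 49.6%, and for 9 of 14 with imatinib against vector, against 42.1%. Taking each gene by its brightest probe set, 5 of 7 genes had groups that did not overlap in BCR/ABL against vector, against 43.9% of all 18193 genes. The share was 5 of 7 also with imatinib against BCR/ABL, against 51.5% of all, and 5 of 7 with imatinib against vector, against 44.2%. The median log2 change of the 7 genes was 0.04 with imatinib against BCR/ABL, beside -0.01 for all genes, with 4 genes higher and 3 lower. The median size of the change, whatever its sign, was 0.43, beside 0.23 for all genes. Nothing is read from that size, since this comparison was taken as the one behind the choice of genes. In BCR/ABL against vector the median change was 0.03, beside 0.01, and the median size 0.13, beside 0.20. With imatinib against vector the median change was -0.04, beside -0.002, and the median size 0.44, beside 0.23. By their brightest probe sets the 7 genes lay at the 53.4 to 98.8 percentiles of level. All genes include dim ones, whose changes the added constant understates, so the sizes are not compared at a like level.

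Genes around these enzymes were taken from 6 further lists of 35 genes, of which 31 had a probe set of their own. Mat2a, Amd2, Paox and Slc22a3 had none. Limma called 0 of the 31 in each of the 3 comparisons, and at an unadjusted p under 0.05 there were 7 with imatinib against BCR/ABL, 4 in BCR/ABL against vector and 9 with imatinib against vector, beside 17.0%, 12.7% and 16.6% of all genes. Over all genes, limma called 0% with imatinib against BCR/ABL, 0.104% in BCR/ABL against vector and 0.0824% with imatinib against vector. These lists too were chosen with earlier results of these data known. Nothing is therefore read from the counts, and the p-values of pathway genes below are not independent of that choice. With imatinib against BCR/ABL, 21 of the 31 were lower and 10 higher by log2 change, with a median of -0.15. Some of these changes were close to 0 or of genes near the floor. The groups did not overlap for 16 of the 31 (14 lower and 2 higher), beside 51.5% of all genes. In BCR/ABL against vector 16 were lower and 15 higher, with a median of -0.01. With imatinib against vector 22 were lower and 9 higher, with a median of -0.13.

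Among genes that supply ornithine and arginine, 8 of 10 had a log2 change below 0 with imatinib against BCR/ABL, and 0 passed. The groups did not overlap for 5 of the 8. Agmat, Otc and Ass1, all among the 8, had mean intensities below 16 in both groups. For Agmat and Arg2, also among the 8, the groups overlapped and the mean intensity was higher with imatinib. For Arg2 it was 181.8 beside 155.9 in BCR/ABL. Arg1, the arginase that makes ornithine from arginine, read 227 and 13.8 with imatinib, 1373 and 844 in BCR/ABL and 95.3 and 26.9 in vector. Both BCR/ABL arrays were far above the others, but the imatinib and vector arrays each spread widely. The change of Arg1 was -3.75 (limma adjusted p = 0.193) with imatinib against BCR/ABL and 4.03 (adjusted p = 0.300) in BCR/ABL against vector. Arg2, the mitochondrial arginase, read 252 and 112 with imatinib, 106 and 206 in BCR/ABL and 49.9 and 38.4 in vector, a change of 1.63 (adjusted p = 0.367) in BCR/ABL against vector and of -0.08 with imatinib against BCR/ABL. Aldh18a1, which leads from glutamate towards ornithine and proline, read 2149.8 and 1653 with imatinib, 2949.98 and 3191 in BCR/ABL and 3021 and 2803 in vector, a change of -0.67 (adjusted p = 0.141) with imatinib against BCR/ABL.

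The methylthioadenosine salvage genes are next to Srm, because spermidine synthesis releases methylthioadenosine, which they return to methionine. In the list of S-adenosylmethionine supply and salvage, 5 of 7 had a log2 change below 0 with imatinib against BCR/ABL, and 0 passed. Of the 5, Mat1a was near the floor, at mean intensities of 2.95 with imatinib and 4.29 in BCR/ABL. Mtap, the phosphorylase that takes the first step of salvage, read 2377 and 1809 with imatinib, 4015 and 3756 in BCR/ABL and 2675 and 2788 in vector. As for Srm, its 3 groups did not overlap and BCR/ABL was highest and imatinib lowest. Its change was -0.86 (limma adjusted p = 0.113) with imatinib against BCR/ABL and 0.48 (adjusted p = 0.326) in BCR/ABL against vector. Mri1, the isomerase of the next step, read 663 and 769 with imatinib, 1181 and 1164 in BCR/ABL and 850.2 and 929.9 in vector, with changes of -0.71 (adjusted p = 0.138) and 0.36 (adjusted p = 0.441). Mat2b, a regulatory subunit of the enzyme that makes S-adenosylmethionine, went the other way, at 4033 and 3573 with imatinib and 2825 and 2865 in BCR/ABL, a change of 0.47 (adjusted p = 0.151).

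Hypusine formation uses spermidine to modify the translation factor eIF5A. Of its 4 genes, 3 had a log2 change below 0 with imatinib against BCR/ABL, and 0 passed. Eif5a2 was 1 of the 3 at only -0.01, with overlapping groups and a higher mean intensity with imatinib (453 beside 411). Dohh, the hydroxylase of the last step, read 344 and 322 with imatinib, 486 and 503 in BCR/ABL and 389 and 323 in vector, with changes of -0.65 (limma adjusted p = 0.247) with imatinib against BCR/ABL and 0.49 (adjusted p = 0.459) in BCR/ABL against vector. Dhps, the synthase of the first step, had changes of -0.22 and -0.19, and Eif5a itself of 0.07 and -0.17, in the same comparisons. Among 5 transport genes, 3 had a log2 change below 0 and 2 above it with imatinib against BCR/ABL. Of the 3, Slc12a8 stood at -6e-04, with mean intensities of 0.70 with imatinib and 0.55 in BCR/ABL. Slc3a2, the heavy chain of amino acid exchangers, read 3871 and 2681 with imatinib, 4208 and 4135 in BCR/ABL and 2524 and 2241 in vector, a change of 0.79 (adjusted p = 0.248) in BCR/ABL against vector. Atp13a2, a lysosomal polyamine exporter, had a change of 0.46 (adjusted p = 0.256) with imatinib against BCR/ABL, and Slc18b1, a vesicular polyamine transporter, of -0.37. The dim genes Oaz3, the antizyme of the testis, and Sat2 had changes of -0.44 and 0.30.

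Myc binds the Odc1 gene and is a known activator of it. Its own transcript read 2144 and 2219 with imatinib, 2557 and 2362 in BCR/ABL and 2221 and 2298 in vector. The BCR/ABL arrays were the highest, by little: the change was -0.15 (limma adjusted p = 0.568) with imatinib against BCR/ABL and 0.10 (adjusted p = 0.723) in BCR/ABL against vector. Mycn had changes of 0.05 and -0.40 in these comparisons. Mycl had changes of 0.38 and -1.37, and its vector intensities of 807 and 66.7 lay far apart.

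**Figure D4:**
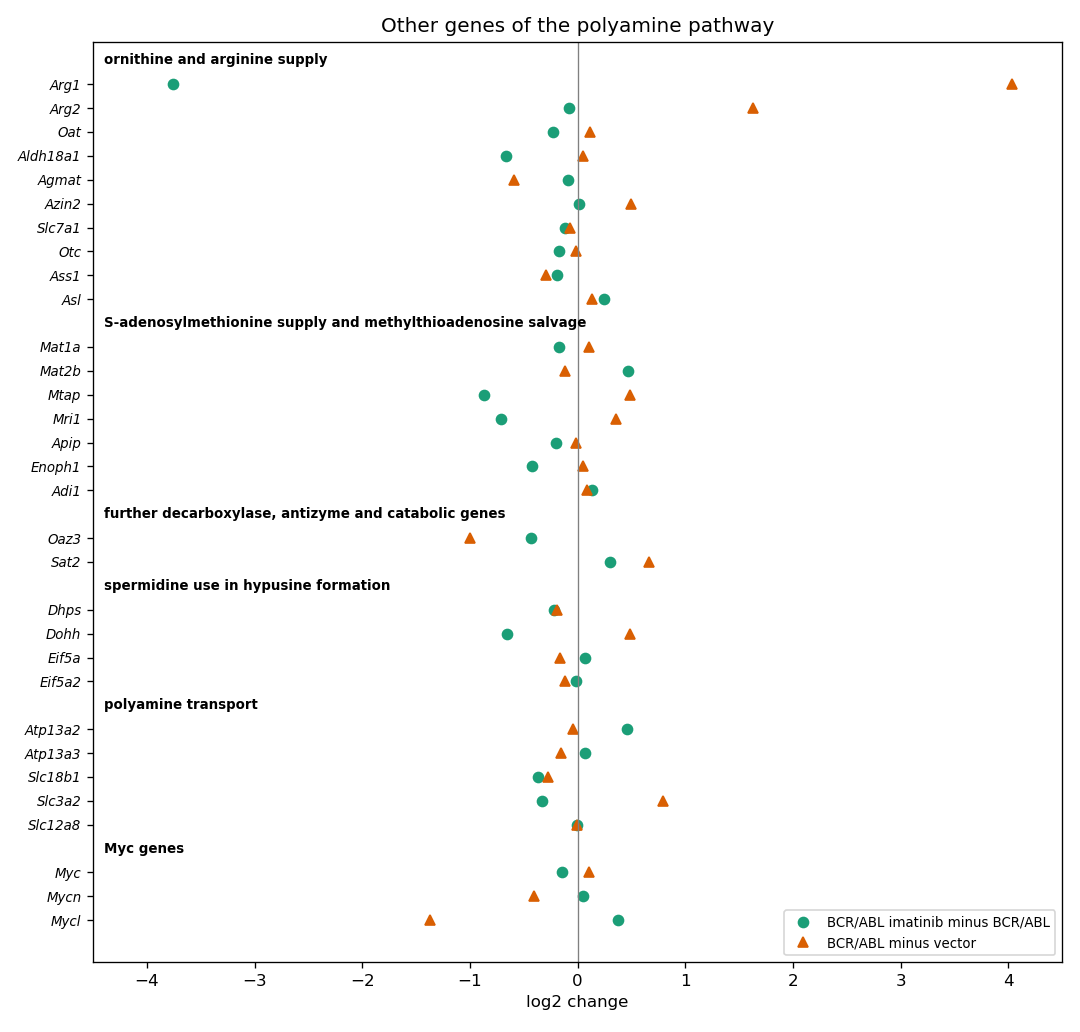
Log2 change of each of the 31 further pathway genes, grouped by role, for BCR/ABL imatinib minus BCR/ABL (circles) and BCR/ABL minus vector (triangles). The BCR/ABL arrays enter both. Arg1 lies farthest out, at -3.75 and 4.03, and 21 of the 31 circles lie below 0.

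The genes whose pattern over the 6 arrays was most like Srm were Thop1, Rrp9, Ndufs1, Lrrc42 and Wdr55, with Pearson correlations of 0.9995 for Thop1, 0.995 for Rrp9, 0.995 for Ndufs1, 0.995 for Lrrc42 and 0.993 for Wdr55 among 4620 genes of sufficient level and spread. For the brightest Odc1 probe set they were Racgap1, Hacd1, Sf3b3, Fanca and Txnl4a, between 0.977 for Txnl4a and 0.992 for Racgap1 among 7900 genes. These correlations describe 6 arrays that share groups and scaling, and they are the highest among all the genes compared.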

How the data were processed

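Gene expression had been measured on 6 arrays, 2 in each of 3 groups, and groups and replicate numbers were taken from the sample titles. The authors deposited an intensity on the linear scale for each probe set, made with Affymetrix Expression Console and MAS5, per the submitters' processing notes. No version is stated there. The mean after removal of 2% at each end was 500.0 on every array. Depth has no meaning for arrays, and their number limits the precision. The series' text names a whole-transcript array, while the probe sets are those of an older 3-prime array.

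Of 45101 probe sets, 64 controls were left out, the rest were transformed as log2(value + 16) and quantile normalized, and the 35877 with a gene symbol were tested. The 14 used here matched RefSeq by Entrez identifier, with 0 symbols changed. Differences were fitted in limma 3.58.1 (R 4.3.3; lmFit, eBayes with trend) with all 6 arrays in 1 model, 3 residual and 2.97 prior degrees of freedom, two-sided, with Benjamini-Hochberg adjustment over 35877 probe sets and a threshold of 0.05. The script was tested on simulated data. Detection calls were not used, so a low value cannot be told from background. The genes and lists were chosen with earlier results of these data known. By rule, all members were named, and from each other list up to 3 genes with the largest change. Like genes were the 5 with the highest correlation, above the 50th percentile of level and with at least 0.5 times the spread. Alternatives were the scaling, the added constant, a filter, the variance prior, the replicate number as a block, the mean of a gene's probe sets, and leaving out each array.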

Additional observations from a re-analysis of the deposited data

How the results depend on the processing

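Over 14 alternatives, 281 of 294 log2 changes of the 7 genes kept their direction, and the 13 others were of Odc1, Oaz1, Oaz2 and Smox. Srm ran from -1.59 to -1.17 with imatinib against BCR/ABL, from 0.35 to 0.64 in BCR/ABL against vector and from -0.95 to -0.78 with imatinib against vector.

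With array medians all probe sets shifted by -0.27 with imatinib against BCR/ABL, by 0.20 in BCR/ABL against vector and by -0.09 with imatinib against vector. Relative to that, Srm stood at -1.32 and Sat1 at 0.59 in the first comparison. In it, 2 of 14 polyamine probe sets and 4 further pathway genes (Arg1, Aldh18a1, Mtap and Mri1) were called under array medians, beside 3.34% of all probe sets. In BCR/ABL against vector 1 pathway gene (Arg1) was called, beside 0.831%, and with imatinib against vector 1 polyamine probe set (Srm), beside 0.767%. The median changes of the 7 genes were then -0.31 with imatinib against BCR/ABL, 0.18 in BCR/ABL against vector and -0.23 with imatinib against vector. Without further normalization the median was -0.0304 in BCR/ABL against vector and -0.11 with imatinib against vector.

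With 1 as the added constant, 1 of 14 polyamine probe sets was called with imatinib against BCR/ABL, beside 0.00836% of all, and 2 (Srm and Sat1) with imatinib against vector, beside 0.217%. Among probe sets above the 50th percentile the counts were 1 of 11, beside 1.18%, and 2 of 11 (the same genes), beside 1.01%, and 1 pathway gene (Mtap) was called in the first. The filter tests fewer probe sets, and other causes were not tested. Nothing is read from calls of polyamine genes with imatinib against BCR/ABL, which was taken as the comparison that led to their choice.

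Reversed values in BCR/ABL against vector were those of Odc1 (0.18 with array medians, 0.0441 with the mean of its probe sets, 0.0085 without vector replicate 1 and 0.081 without BCR/ABL replicate 1, within a range of -0.14 to 0.081 over left-out arrays), Oaz1 (0.0816 with array medians) and Smox (-0.17 without further normalization, -0.13 with the mean of its probe sets, -0.0909 without vector replicate 1, within a range of -0.0909 to 0.158). With imatinib against vector they were those of Oaz2 (-0.0627 with array medians) and Oaz1 (0.0069 without imatinib replicate 2, within a range of -0.0843 to 0.0069).

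Leaving out 1 array called 0 polyamine and 0 pathway genes, and the median of the 7 genes ran from 0.0085 to 0.158 in BCR/ABL against vector, the highest without vector replicate 2, from -0.002 to 0.09 with imatinib against BCR/ABL and from -0.0843 to 0.0069 with imatinib against vector. A lone array is assumed to vary like the others. The replicate number as a block called 0 polyamine and 0 pathway genes. The labels do not say what the number marks, and the differences between replicates correlated at -0.08 for BCR/ABL and vector, 0.15 for imatinib and BCR/ABL and 0.16 for imatinib and vector.

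Over all probe sets the calls ran from 0 to 1200 with imatinib against BCR/ABL (0 as reported), from 0 to 298 in BCR/ABL against vector (22) and from 0 to 275 with imatinib against vector (16).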
